A study of Mus musculus with 13 samples.

Results

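The comparison followed KLS cells of PML-RARA mice over time: 2 arrays from mice of 13 weeks were set against 3 arrays from mice of 6 weeks, 5 of the 13 arrays of the series. These 5 arrays were chosen by their titles alone, and no measured value entered that choice. Both ages carried the same genotype, labelled mCG-PR N17, on the strain labelled Bl/6 Taconic, in which the fusion is expressed from the murine Ctsg locus. The 4 wild-type (WT) KLS arrays of the same strain, from 2 mice of 13 weeks and 2 of 12 weeks, shared the fit and gave a reference level. Each array held RNA from sorted bone marrow cells of 1 mouse. There were no WT KLS arrays of 6 weeks, so a change with time in transgenic cells and a change with age in any mouse cannot be told apart.

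PML-RARA is the fusion of the PML protein with the retinoic acid receptor alpha that is found in acute promyelocytic leukaemia. Retinoic acid receptors bind DNA together with retinoid X receptors, and the fusion holds their target genes in a repressed state. In mice that express it in early myeloid cells, leukaemia appears only after a long latency, so young animals carry the fusion without overt disease. KLS cells carry the surface proteins KIT and SCA-1 (encoded by Ly6a) and lack those of mature blood lineages, and the fraction holds blood stem cells and multipotent progenitors. The Ctsg locus encodes cathepsin G, a granule protease of promyelocytes, so its promoter is most active in cells later than the KLS stage. The arrays have mouse probes, so a Pml, Rara or Ctsg value is that of the endogenous gene plus whatever the probes detect of the transgene.

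The promoters of the 2 genes on which the results turn are shown first. They are Tefm, the sole gene that passed the test, and Aldh1a1, which among the leading genes of higher level at 13 weeks had the most probe sets with all of them of one sign. Each line gives the 250 bases before a RefSeq transcription start in the GRCm38.p6 table, 5′ to 3′ on the gene's strand. Capitals mark matches, on either strand, to the searched motifs CCAAT, ATGCAAAT (octamer), CCGGAAGT (ETS), GGGCGG (GC box), TATAAA and AGGTCA (the core of a retinoid receptor site).
Tefm, chr11:80142154-80142403, minus strand: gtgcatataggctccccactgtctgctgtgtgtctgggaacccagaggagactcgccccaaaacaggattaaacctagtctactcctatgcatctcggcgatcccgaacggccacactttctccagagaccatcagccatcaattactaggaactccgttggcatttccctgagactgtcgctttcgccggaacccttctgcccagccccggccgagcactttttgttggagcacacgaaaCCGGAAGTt
Aldh1a1, the downstream of its 2 listed starts, chr19:20601718-20601967, plus strand: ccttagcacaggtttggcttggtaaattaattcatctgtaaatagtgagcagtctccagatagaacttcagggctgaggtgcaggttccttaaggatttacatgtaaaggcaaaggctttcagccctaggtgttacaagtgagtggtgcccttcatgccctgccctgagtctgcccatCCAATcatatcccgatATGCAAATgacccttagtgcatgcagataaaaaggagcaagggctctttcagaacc

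The Tefm window held 1 match, to CCGGAAGT, a motif present in 2.88% of the 32851 promoters of the table. The Aldh1a1 window held CCAAT, found in 33.8% of promoters, and ATGCAAAT, found in 1.6%. The other listed Aldh1a1 start, at chr19:20492333-20492582, is not printed, since its window held 0 matches, with 3 CG pairs and 42.8% G or C. AGGTCA, found in 14.0% of promoters, was in none of the 3 windows. The printed windows also differed in base composition, with 13 CG pairs and 54.8% G or C before Tefm and 1 CG pair and 46.4% before Aldh1a1. These matches describe the letters of the windows, and the arrays did not measure binding.

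All values below are log2 intensities of the deposited table, and a gene's value is the median of its probe sets. A difference is the 13-week mean minus the 6-week mean, on that log2 scale, with its standard error from limma. The median intensity of the 5 arrays lay between 109.8 and 115.3, and 10586 genes passed the filter on low levels. The 6-week array of replicate 3 stood apart in the Y-linked genes, with Eif2s3y at 4.18 against 7.78 to 8.91 on the other 4 arrays, and Kdm5d at 4.88 against 7.42 to 8.02. The labels give no sex. Its value for the X-linked Kdm6a was 9.02, against 8.21 and 8.19 on the other 6-week arrays. Between the ages Eif2s3y differed by 0.67 and Kdm5d by 0.53, and by −0.89 and −0.51 without this array. The X-linked Kdm6a, Kdm5c, Ddx3x and Eif2s3x differed by −0.76, −0.32, −0.28 and −0.24. The median of −0.26 over the 6 sex-linked genes pools these opposite signs. The 13-week arrays held no array of low Y-linked signal, and the part of this imbalance in the differences was not tested. In bulk RNA, fewer cells of a type and less RNA per cell cannot be told apart.

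Markers of the gate were present at both ages. Kit, the receptor used for the gate, read 9.58 and 9.56 at 13 weeks and 9.95, 10 and 10.32 at 6 weeks, so both older arrays lay below all 3 younger ones. Its difference was −0.52 ± 0.17 (adjusted p = 0.301 by limma). Ly6a read 8.51 and 9.18 at 13 weeks and 8.99, 9.44 and 8.67 at 6 weeks, and Flt3, a receptor of multipotent and lymphoid-primed progenitors, read 10.47 and 10.67 against 10.66, 10.9 and 10.36; both overlapped. Among markers of mature lineages, Cd4, Cd8a, Ms4a1, Klrb1c and Adgre1 had mean levels over the 9 KLS arrays below the filter threshold of 5.96. Cd3e, part of the T-cell receptor complex, was above it, at 6.95 and 7.02 at 13 weeks and 6.79, 6.08 and 6.85 at 6 weeks, as was Itgam, an integrin of myeloid cells, at 6.84 and 6.94 against 6.75, 6.98 and 7.57.

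None of the genes of the fusion or its locus passed the test. Ctsg read 8.62 and 9.08 at 13 weeks and 8.23, 9.54 and 8.6 at 6 weeks, a difference of 0.06 ± 0.37 whose 95% interval ran from −0.74 to 0.85. The highest and the lowest Ctsg values were both from 6-week mice, and WT KLS had a mean of 8.5 ± 0.55 (SD, n = 4). Pml read 6.84 and 6.6 at 13 weeks and 6.86, 6.97 and 7.24 at 6 weeks, a difference of −0.3 ± 0.18 with adjusted p = 0.51; both older arrays lay below the younger ones. Rara read 6.7 and 6.77 at 13 weeks and 6.71, 7.28 and 6.77 at 6 weeks, a difference of −0.18 ± 0.23 with adjusted p = 0.783.

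Across all genes, 1 gene passed the adjusted threshold of 0.05. That was 0.0% of the tested genes higher at 13 weeks and 0.00945% lower. At an unadjusted p under 0.05 there were 277 genes higher (2.62%) and 999 lower (9.44%). Without overlap between the arrays of both ages there were 1113 genes higher (10.5%) and 2138 lower (20.2%). At the level of single probe sets, limma called 0 of 144611, with 14738 at an unadjusted p under 0.05.

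The gene that passed was Tefm, which encodes the elongation factor of mitochondrial transcription, a protein that keeps the mitochondrial RNA polymerase moving along mitochondrial DNA. Its log2 level was 6.15 and 6.11 at 13 weeks, and 7.26, 7.56 and 7.66 at 6 weeks. All 3 younger arrays lay above both older ones. WT KLS of 12 to 13 weeks read 7.1, 7.15, 7.21 and 6.75, which is above the transgenic mice of like age and below those of 6 weeks. Tefm fell by 1.36 ± 0.19 on the log2 scale, 2.57-fold lower at 13 weeks (95% interval −1.77 to −0.96, limma adjusted p = 0.0466).

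The Tefm call rested on the summary of its probe sets. Of its 7 probe sets, 5 had a lower mean at 13 weeks and 2 a higher one, and 1 of the 7 did so without overlap. That probe set read 5.06 and 5.28 at 13 weeks and 6.32, 7.23 and 7.71 at 6 weeks. The probe set that supplied the median was not the same one on every array. With the mean of probe sets in place of the median, the difference was −0.47 (unadjusted p = 0.0165, adjusted p = 0.212). Leaving out 1 array also moved the call: the adjusted p was 0.373 without replicate 1 of 13 weeks, 0.203 without its replicate 2, 0.294 without replicate 2 of 6 weeks and 0.159 without replicate 3 of 6 weeks, while the difference stayed between −1.39 and −1.28 in these fits. Leaving out a WT array gave 0.121, 0.0992 and 0.0676 for replicates 1, 2 and 3. The call was likewise lost with all 13 arrays in the fit (adjusted p = 0.31) and with only the 5 transgenic KLS arrays (0.218).

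Aldh1a1 encodes a retinaldehyde dehydrogenase, the enzyme that makes retinoic acid from retinaldehyde and that is known for its high activity in blood stem cells. It read 7.32 and 6.9 at 13 weeks, and 6.05, 6.01 and 6.01 at 6 weeks. The 3 younger arrays lay close together and below both older ones, and WT KLS read 6.73, 6.87, 6.86 and 7.26, on the side of the older mice. The difference was 1.09 ± 0.19, or 2.12-fold, with an unadjusted p of 6.54e-05 and an adjusted p of 0.19, so it did not pass. All 15 of its probe sets had a higher mean at 13 weeks, 9 of them without overlap; over all probe sets of the array the share higher without overlap was 12.2%. The mean of its probe sets gave 0.97 (unadjusted p = 0.000323, adjusted p = 0.138).

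**Figure D1:**
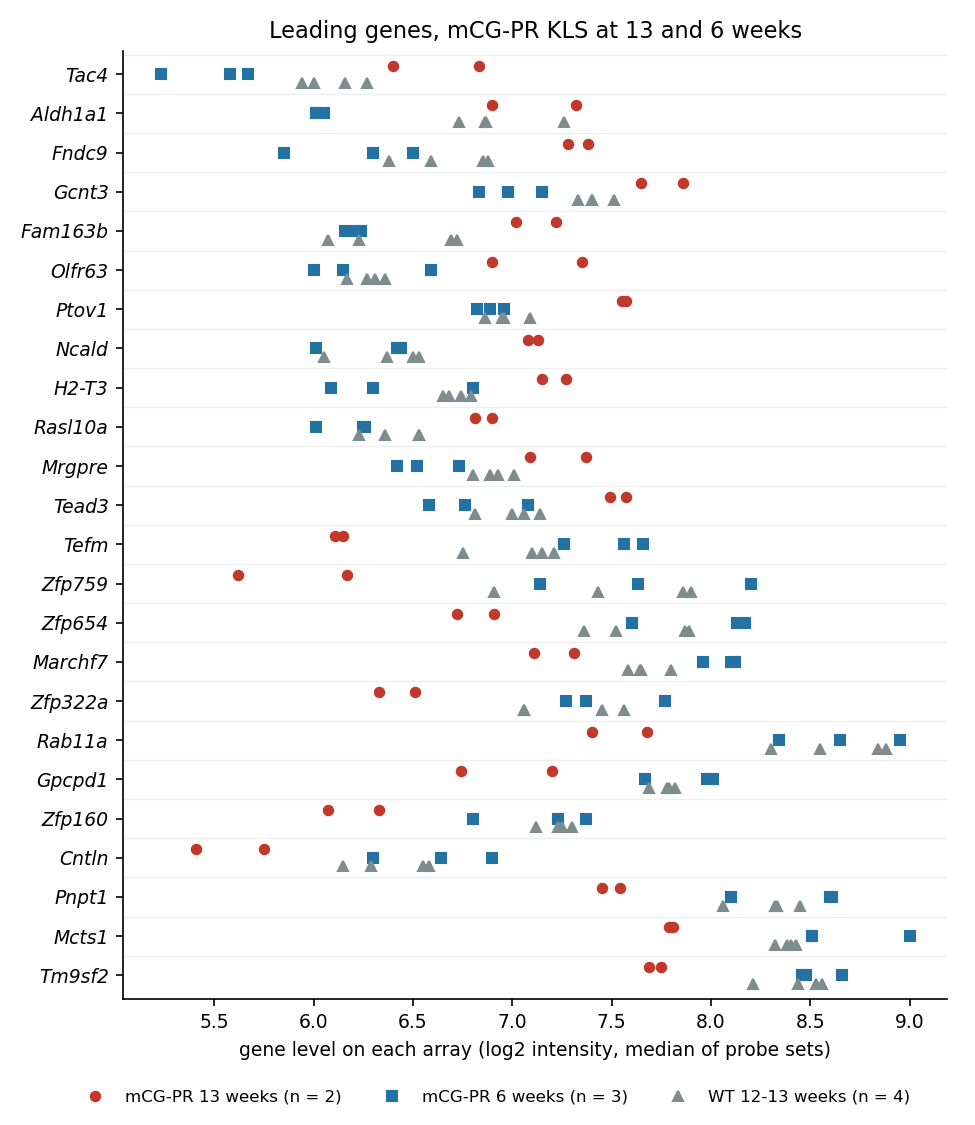
Log2 level of the 12 genes of smallest unadjusted p in each direction (one panel each), with 1 point per array for transgenic mice of 13 weeks (n = 2) and of 6 weeks (n = 3) and for WT KLS (n = 4). In all 24 genes the points of both transgenic ages are apart, which the selection by small p favours, and Tefm alone passed the adjusted threshold.

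The other genes of smallest p were chosen by that p, so their values are a description. The 12 higher at 13 weeks had differences of 0.67 to 1.12 and adjusted p of 0.19 to 0.243, and the 12 lower, Tefm included, had −1.76 to −0.81 and 0.0466 to 0.19. The mean of WT KLS lay between the means of both transgenic ages in 12 of the 12 higher and in 10 of the 12 lower genes. Since the WT arrays come from mice of 12 to 13 weeks, an intermediate WT level says nothing of the 6-week WT level, which was not measured.

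Among the lower genes were 4 of the Zfp series, which encode zinc finger proteins. Zfp759 had the largest difference of the 12: it read 6.17 and 5.62 at 13 weeks and 7.63, 8.2 and 7.14 at 6 weeks, with WT KLS at 7.86, 7.9, 6.91 and 7.43. The difference was −1.76 ± 0.32, and 5 of 5 probe sets were lower. Zfp322a read 6.33 and 6.51 against 7.37, 7.27 and 7.77, a difference of −1.05 ± 0.21. All 9 of its probe sets were lower, 7 of them without overlap, where 14.3% of all probe sets of the array were. Zfp654 and Zfp160 had differences of −1.15 ± 0.22 and −0.94 ± 0.19.

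Pnpt1 encodes polynucleotide phosphorylase, a mitochondrial enzyme of RNA import and decay. It read 7.45 and 7.54 at 13 weeks and 8.1, 8.61 and 8.6 at 6 weeks, with WT KLS at 8.32, 8.06, 8.33 and 8.45. The difference was −0.94 ± 0.2, and 30 of 30 probe sets were lower, 19 of them without overlap, against 14.3% of all probe sets. Both its number of probe sets and its number without overlap were the largest among the 24 genes. Pnpt1 and Tefm both act on mitochondrial RNA; no gene list of mitochondrial RNA handling was tested.

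Rab11a, a GTPase of recycling endosomes, read 7.4 and 7.68 at 13 weeks and 8.34, 8.65 and 8.95 at 6 weeks, a difference of −1.11 ± 0.22. Gpcpd1, a glycerophosphocholine phosphodiesterase, differed by −0.91 ± 0.19 with 19 of 20 probe sets lower. Marchf7, a ubiquitin ligase, and Tm9sf2, a membrane protein of endosomes and Golgi, differed by −0.85 ± 0.16 and −0.81 ± 0.17. Mcts1, a factor of translation reinitiation, differed by −0.87 ± 0.18, with 8 of 8 probe sets lower. Cntln, which encodes the centrosome protein centlein, read 5.75 and 5.41 against 6.3, 6.64 and 6.9.

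Among the higher genes, probe sets of 1 gene often differed in sign. Tac4, a tachykinin gene also called hemokinin, read 6.4 and 6.83 at 13 weeks and 5.58, 5.23 and 5.67 at 6 weeks, a difference of 1.12 ± 0.2, but 4 of its 7 probe sets were higher and 3 lower. Fndc9 and Fam163b, whose roles in blood cells are little described, differed by 1.11 ± 0.22 and 0.91 ± 0.21. Gcnt3, an enzyme of O-glycan branching, differed by 0.77 ± 0.17 with 4 of 4 probe sets higher. Tead3, a transcription factor of the Hippo pathway, read 7.49 and 7.57 against 7.08, 6.58 and 6.76, with 13 of 15 probe sets higher. H2-T3 differed by 0.81 ± 0.2; it is a non-classical class I histocompatibility gene with close paralogues, so its signal is uncertain. Olfr63, Ptov1, Ncald, Rasl10a and Mrgpre completed the 12, with differences of 0.67 to 0.88.

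With the mean of probe sets in place of the median, all 12 lower genes kept their sign and an unadjusted p under 0.05, with differences of −0.99 to −0.37. Of the higher genes, 10 were tested in that form, 10 kept their sign and 6 had an unadjusted p under 0.05, with differences of 0.16 to 0.97. Counted over probe sets, 142 of 154 were lower in the lower genes and 76 of 94 higher in the higher genes. The genes were selected by the p of the median of these same probe sets on the same arrays. That selection favours a shared sign, so these counts are a description and no independent check.

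**Figure D2:**
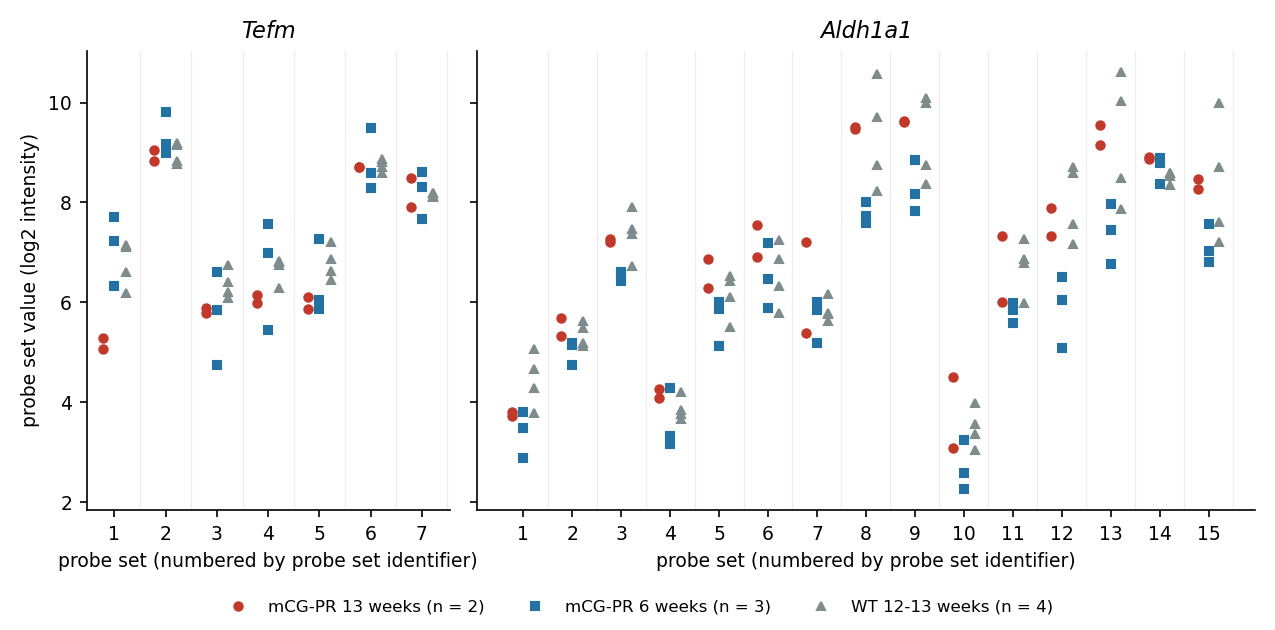
Difference between 13 and 6 weeks (log2) for each probe set of Tefm, Aldh1a1, Pnpt1, Zfp322a, Gpcpd1 and Tac4, with 1 point per probe set numbered by its order in the deposited table. Aldh1a1 has 15 of 15 probe sets above 0 and Pnpt1 has 30 of 30 below it, whereas Tefm has 5 of 7 below 0 and Tac4 has 4 of 7 above it.

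The differences were not centred at 0. Their median over all genes was −0.07, and 6398 of the 10586 genes (60.4%) were lower at 13 weeks. The shift followed the level of the gene. In the quintile of lowest mean level, 5.96 to 6.45, the median difference was 0.08 and 1341 of 2118 genes were higher at 13 weeks; in the quintile of highest level, 8.3 to 13.21, it was −0.21 and 1715 of 2117 were lower. The next quintiles up from the lowest had medians of 0.01, −0.07 and −0.16. The trend stayed when any of the 5 arrays was left out, with a median of −0.28 to −0.16 in the highest quintile.

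Cyclic loess between the arrays, an adjustment chosen after seeing the data, brought the medians of the quintiles to between −0.005 and 0.011 and the share of lower genes to 49.7%. Some leading genes moved little under it: Tefm went from −1.36 to −1.32 (adjusted p = 0.0377), Aldh1a1 from 1.09 to 1.08 and Zfp322a from −1.05 to −0.98. Others moved more: Pnpt1 went from −0.94 to −0.75, Rab11a from −1.11 to −0.9, Mcts1 from −0.87 to −0.67 and Tm9sf2 from −0.81 to −0.61. The medians of the gene groups are therefore given as deposited and after this adjustment. The part that this trend has in a group's difference was not tested.

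**Figure D3:**
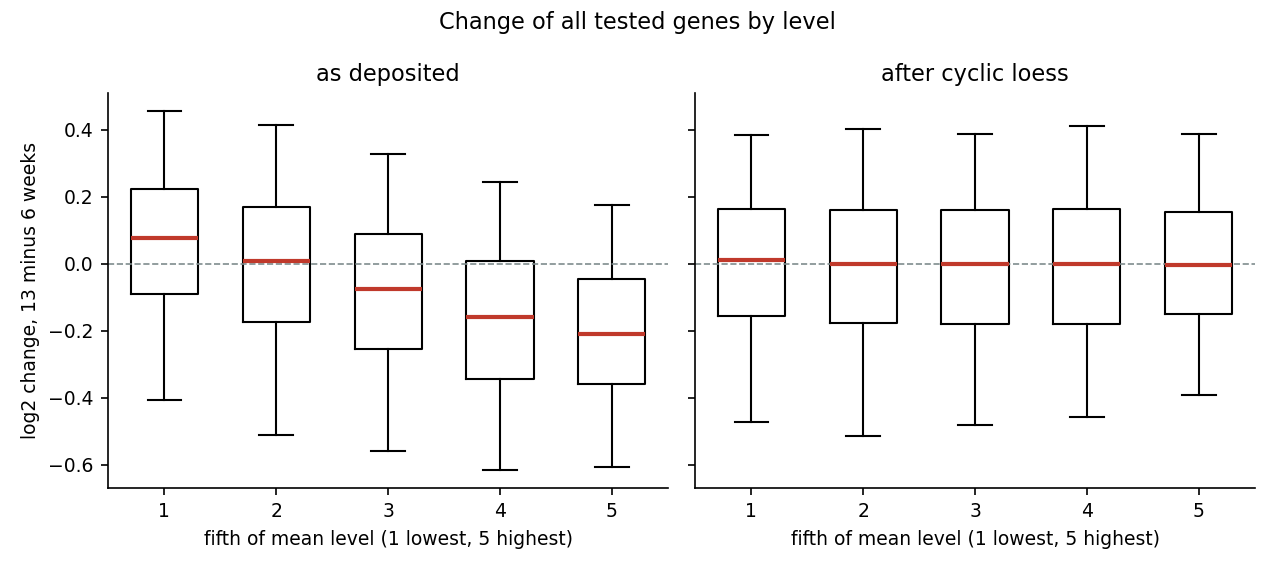
Distribution of the log2 difference between 13 and 6 weeks in quintiles of mean log2 level, as deposited and after cyclic loess (box: lower to upper quartile; line: median; whiskers: 5th to 95th percentile). The deposited median goes from 0.08 in the lowest quintile to −0.21 in the highest, and the adjusted medians lie between −0.005 and 0.011.

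The gene groups were 34 lists chosen for blood stem and progenitor cells, with 818 of 952 entries measured. No list member passed the adjusted threshold, against 1 of 10586 genes in all, so the groups are described by counts, medians and values.

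Stem cell genes had no common direction. Of 27 tested genes of long-term stem cells, 15 were higher and 12 lower at 13 weeks, with a median of 0.04, and −0.0 after cyclic loess, against −0.07 for all genes. The members of smallest p were mostly lower. Cd34, the sialomucin of early progenitors, read 10.13 and 9.92 at 13 weeks and 10.32, 10.78 and 10.53 at 6 weeks, a difference of −0.52 ± 0.18 with 11 of 12 probe sets lower (adjusted p = 0.316).

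Meis1 and Hlf are transcription factors that maintain stem cells. Meis1 read 9.7 and 9.92 at 13 weeks, 10.13, 10 and 10.57 at 6 weeks, and 10.57 ± 0.17 (SD, n = 4) in WT KLS. Its difference was −0.42 ± 0.2, and both older arrays lay below the younger ones. Hlf read 9.62 and 10.03 against 10.34, 9.99 and 10.83, with overlap, and 10.87 ± 0.41 in WT KLS (SD, n = 4). In these genes the 13-week mice had the lowest mean of the 3 KLS groups. Bmi1, a Polycomb gene of self-renewal, differed by −0.36 ± 0.17, and Abcg2, the transporter behind the side population, by −0.4 ± 0.2. For Meis1, Hlf, Bmi1 and Abcg2, 3 of 17, 5 of 15, 6 of 14 and 6 of 19 probe sets were higher. In that order the mean of probe sets gave −0.22, −0.27, −0.42 and −0.31 (unadjusted p = 0.212, 0.107, 0.0172 and 0.0689 by limma). After cyclic loess the differences of these 4 genes were −0.23, −0.37, −0.18 and −0.28. Gfi1, a repressor that restrains stem cell division, had a difference of 0.45 ± 0.2 with overlap, but 8 of its 17 probe sets were lower and the mean of probe sets gave 0.03.

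The Hox, Meis and Pbx genes had 11 members higher and 8 lower, with a median of 0.01, and 0.07 after cyclic loess. Pbx4, a Hox cofactor, read 7.4 and 7.4 at 13 weeks and 7.8, 8.1 and 8.16 at 6 weeks. Of its 9 probe sets 4 were higher, and their mean gave −0.17. Hoxb6 read 7.51 and 7.44 against 7.21, 7.06 and 6.97, with 6 of 6 probe sets higher. The Notch and Wnt genes, signals from the marrow niche, had 14 members higher and 10 lower, with a median of 0.02, which was 0.08 after cyclic loess, and none at an unadjusted p under 0.05 in either direction. Of the genes of adhesion and homing, 7 were higher and 19 lower, with a median of −0.11 that was 0.04 after cyclic loess; Icam2, an endothelial and leukocyte adhesion ligand, read 7.34 and 7.08 against 7.59, 7.79 and 7.67.

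Several genes of lymphoid-primed and plasmacytoid dendritic cells had their highest values in the 6-week mice. Siglech, a lectin of plasmacytoid dendritic cells, read 7.19 and 7.18 at 13 weeks and 7.74, 7.62 and 8.11 at 6 weeks. Both older arrays lay below the younger ones, and above all 4 WT arrays, which read 5.96, 6.21, 6.55 and 6.11. The difference between the ages was −0.64 ± 0.2 (unadjusted p = 0.00752, adjusted p = 0.291). Of its 8 probe sets 7 were lower, 0 of them without overlap, and the mean of probe sets gave −0.32 (unadjusted p = 0.12).

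Irf8, the transcription factor of monocyte and dendritic fate, read 7.67 and 7.09 at 13 weeks and 7.82, 8.54 and 7.7 at 6 weeks, and 6.53, 6.24, 6.8 and 6.62 in WT KLS. Its difference was −0.64 ± 0.26, in the same order of groups as Siglech. Il7r, the interleukin 7 receptor of lymphoid progenitors, had that order too, at 7.95 and 7.94, then 8.5, 8.35 and 8.24, then 6.49, 6.15, 7.78 and 6.87 in WT KLS, with a difference of −0.42 ± 0.34. The 3 genes thus had their highest level in the 6-week mice and their lowest in WT KLS, and none passed the test between the ages. Mef2c, a lymphoid-priming factor, differed by −0.59 ± 0.2, with 13-week values of 9.42 and 9.12 below the 6-week values of 9.69, 9.68 and 10.2; its WT mean of 9.46 ± 0.16 (SD, n = 4) lay between.

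As a list, the lymphoid-primed genes had 8 members higher and 11 lower, with a median of −0.06. After cyclic loess 15 were higher and 4 lower, with a median of 0.10. The dendritic cell list had 8 higher and 10 lower, with a median of −0.03. Its counts after cyclic loess were 12 higher and 6 lower, with a median of 0.12. Class II antigen presentation genes in it were on the other side from Siglech and Irf8. H2-Ab1 read 8.56 and 8.54 at 13 weeks and 8.09, 7.98 and 7.74 at 6 weeks, a difference of 0.62 ± 0.19 with 5 of 5 probe sets higher. H2-Eb1 differed by 0.49 ± 0.25 with 7 of 7 probe sets higher, and Batf3, a factor of conventional dendritic cells, by 0.43 ± 0.2. The mean of probe sets gave 0.31 for H2-Ab1 (unadjusted p = 0.18), 0.28 for H2-Eb1 (unadjusted p = 0.274) and 0.36 for Batf3 (unadjusted p = 0.0244).

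**Figure D4:**
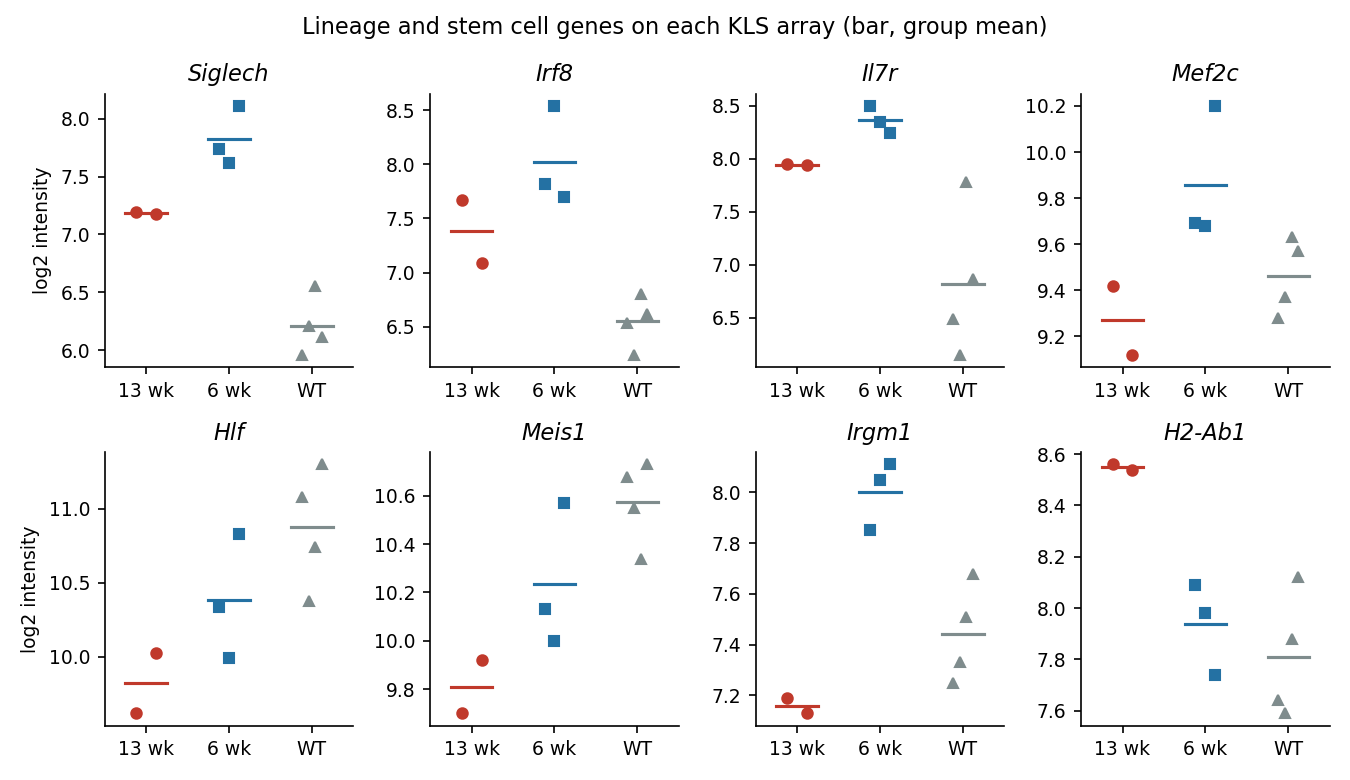
Log2 level of selected lineage and stem cell genes (one panel each), with 1 point per array and a line at the mean of transgenic mice of 13 weeks (n = 2) and of 6 weeks (n = 3) and of WT KLS (n = 4). Siglech and Irf8 lie lowest in WT KLS and highest at 6 weeks, and the 13-week arrays of H2-Ab1, 8.56 and 8.54, lie above the rest.

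The B-cell list was small and one-sided. All 8 of its tested genes had a higher mean at 13 weeks, where 39.6% of all genes did. Their median was 0.20, and 0.18 after cyclic loess. Without overlap 3 of the 8 were higher, against 10.5% of all genes. Genes of low level were more often higher: in the lowest quintile of level 1341 of 2118 were, 421 of them without overlap. Of the 8 genes, 3 lie in the upper 2 quintiles. Cd79a, part of the B-cell receptor, read 6.58 and 6.66 at 13 weeks and 6.39, 6.27 and 5.99 at 6 weeks, a difference of 0.41 ± 0.17 (adjusted p = 0.368). Pax5 and Ebf1, the factors of B-cell commitment, overlapped, with differences of 0.21 ± 0.19 and 0.19 ± 0.25. The mean level of the list was 7.18 and 7.16 at 13 weeks and 7.13, 6.9 and 6.87 at 6 weeks, and the B-cell surface gene Ms4a1 was at 3.92 to 4.67 on all 5 arrays, below the filter threshold. The T and NK cell list had 8 members higher and 6 lower, with a median of 0.02, and 0.03 after cyclic loess. Gzma, a granule protease of killer cells, read 6.86 and 6.09 against 7.02, 7.47 and 7.05.

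Several granule genes of granulocytes, eosinophils and mast cells varied widely within the 6-week group. For the primary granule genes the mean level of the list was 8.51 and 8.96 at 13 weeks and 8.53, 9.41 and 8.83 at 6 weeks, with replicate 2 of 6 weeks the highest of the 5 arrays. The same array was highest for the late neutrophil list, at 8.21 against 7.57 to 7.76 on the other 4, and for the mast cell and basophil list, at 8.0 against 7.34 to 7.5. Mpo, the myeloperoxidase of primary granules, read 10.62 and 11.44 at 13 weeks and 10.81, 12.0 and 11.22 at 6 weeks. Cpa3, a protease of mast cells, read 7.33 and 7.29 against 6.98, 9.61 and 7.14, so 1 array carried the difference of −0.6 ± 0.57. Prg2, the major basic protein of eosinophils, read 9.05 and 7.89 against 7.68, 10.96 and 9.04.

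Without replicate 2 of 6 weeks, the medians of the late neutrophil, mast cell and primary granule lists went from −0.17, −0.08 and −0.14 to 0.03, 0.13 and 0.07. That of the 2 eosinophil genes went from −0.58 to −0.08. Cebpe, a factor of late granulocyte maturation, differed by −0.73 ± 0.33, again with replicate 2 of 6 weeks the highest, at 7.99 against 6.24 to 6.96. Of its 4 probe sets 2 were higher, and their mean gave −0.22. Cd177, a neutrophil surface protein, stood on the other side, at 7.3 and 7.04 against 6.84, 6.82 and 6.47. Csf1, the macrophage growth factor, read 5.72 and 5.88 at 13 weeks and 6.55, 6.53 and 6.48 at 6 weeks, with a difference of −0.72 ± 0.2, but 6 of its 15 probe sets were higher. Hpgds, a prostaglandin D synthase of mast cells, read 7.03 and 6.84 against 6.52, 6.48 and 6.3, without overlap. After cyclic loess the medians of the late neutrophil, mast cell, primary granule and eosinophil lists were −0.02, −0.12, 0.05 and −0.51.

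Monocyte and macrophage genes had 9 members higher and 7 lower, with a median of 0.09, and 0.15 after cyclic loess. Ctss, cathepsin S of antigen-presenting cells, read 10.62 and 10.55 at 13 weeks and 10.36, 10.17 and 8.99 at 6 weeks, with 9 of 9 probe sets higher. Its difference of 0.75 ± 0.31 went to 0.32 without replicate 3 of 6 weeks, the array of low Y-linked signal. Axl, a receptor for apoptotic cells, differed by 0.56 ± 0.2, while Cybb, the NADPH oxidase subunit, and Ccr2, a receptor of migrating monocytes, differed by −0.69 ± 0.33 and −0.56 ± 0.3 with overlap. For Axl 10 of 25 probe sets were lower, and their mean gave 0.17.

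Of the transcription factors and receptors of myeloid fate, 8 were higher and 17 lower at 13 weeks, with a median of −0.12 and −0.01 after cyclic loess. Myb, a factor of progenitor proliferation, read 9.87 and 10.07 at 13 weeks and 10.2, 10.57 and 10.38 at 6 weeks, a difference of −0.41 ± 0.18 with 18 of 19 probe sets lower. Id2, an inhibitor of helix-loop-helix factors, read 6.66 and 6.75 against 6.96, 8.03 and 7.04, with 4 of 4 probe sets lower.

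Erythroid genes had 12 members higher and 7 lower, with a median of 0.10, and 0.11 after cyclic loess. Tfrc, the transferrin receptor that rises with iron demand and division, read 8.67 and 8.86 at 13 weeks and 9.24, 9.23 and 9.34 at 6 weeks. Its difference was −0.5 ± 0.22 with 21 of 21 probe sets lower, 12 of them without overlap, against 14.3% of all probe sets. WT KLS read 8.22, 7.89, 8.63 and 8.63, below both. Klf1, the erythroid master factor, differed by 0.51 ± 0.23, although only 3 of its 7 probe sets were higher. The megakaryocyte and platelet list had 7 higher and 11 lower, with a median of −0.05, and 0.05 after cyclic loess. Its member Thbs1, thrombospondin 1, read 8.05 on replicate 3 of 6 weeks against 6.18 to 6.45 on the other 4 arrays. The stromal and endothelial list had 7 higher and 3 lower, with a median of 0.04, which was 0.02 after cyclic loess, and none at an unadjusted p under 0.05 in either direction.

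Genes of DNA replication were mostly lower at 13 weeks: 31 of 36 were lower, where 60.4% of all genes were, with a median of −0.24 that ranged from −0.31 to −0.17 when 1 array was left out. After cyclic loess 22 of 36 were lower and the median was −0.08; 24 of the 36 lie in the upper 2 quintiles of level. The mean level of the list was 7.91 and 7.99 at 13 weeks and 8.04, 8.25 and 8.29 at 6 weeks, without overlap. WT KLS read 7.83, 7.61, 8.02 and 7.8. Among single genes 20.2% were lower without overlap. The p53 target and quiescence lists were also lower without overlap in mean level. The B-cell, fetal and juvenile, stem cell age, and glucocorticoid and circadian lists were higher without overlap.

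Gins1, a subunit of the replicative helicase, read 6.25 and 7.01 at 13 weeks and 7.69, 7.72 and 7.61 at 6 weeks, a difference of −1.04 ± 0.24 (unadjusted p = 0.00057, adjusted p = 0.192) that was −0.98 after cyclic loess. Pola1, the catalytic subunit of the polymerase that primes replication, read 7.84 and 8.65 against 8.72, 8.75 and 9.13, with 37 of 38 probe sets lower. Its partner Pola2 differed by −0.41 ± 0.19, but 11 of its 28 probe sets were higher and their mean gave −0.2. In Gins1, Pola1 and Pola2 both older arrays lay below the younger ones. Gins3, another helicase subunit, overlapped, at 7.66 and 7.11 against 7.63, 8.01 and 8.14.

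Mitotic genes followed less evenly, with 10 higher and 26 lower and a median of −0.10, which was 0.02 after cyclic loess and 0.04 without replicate 2 of 6 weeks. Hmmr, a spindle protein, read 7.1 and 6.92 at 13 weeks and 7.16, 7.86 and 7.93 at 6 weeks, with 19 of 19 probe sets lower. Foxm1, a driver of mitotic transcription, differed by −0.43 ± 0.23, but 4 of its 11 probe sets were higher. The mean of its probe sets gave −0.08 (unadjusted p = 0.787). The mean level of the mitotic list was 7.86 and 7.99 at 13 weeks, within the 6-week range of 7.77 to 8.28.

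Genes of quiescence and of cell cycle inhibitors had 10 members higher and 20 lower, where 60.4% of all genes were lower, with a median of −0.12. After cyclic loess 15 were higher and 15 lower, with a median of −0.01. Rb1, the retinoblastoma protein that restrains entry into S phase, read 7.15 and 7.59 at 13 weeks and 7.74, 7.9 and 8.37 at 6 weeks. Its difference was −0.63 ± 0.21 with 26 of 28 probe sets lower, 20 of them without overlap, against 14.3% of all probe sets. Its relatives Rbl2 and Rbl1 differed by −0.45 ± 0.16 and −0.37 ± 0.19, so all 3 pocket protein genes were lower in value and none passed the test (adjusted p = 0.301, 0.316 and 0.454). Cdkn1c, an inhibitor of cyclin-dependent kinases in stem cells, was on the other side, at 0.3 ± 0.18 with overlap.

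Of the p53 target genes, 16 of 21 were lower at 13 weeks, with a median of −0.22. The count of 16 was the same after cyclic loess, with a median of −0.17, and the median ranged from −0.26 to −0.09 when 1 array was left out. Ei24, an autophagy-linked p53 target, read 8.2 and 8.2 at 13 weeks and 8.61, 9.1 and 9.15 at 6 weeks, a difference of −0.76 ± 0.19 (adjusted p = 0.243). Ccng1, cyclin G1, read 9.55 and 9.62 against 9.71, 10.29 and 10.44, with 8 of 9 probe sets lower. Apaf1, the core of the apoptosome, differed by −0.43 ± 0.21, and Phlda3, an inhibitor of AKT, went the other way, at 0.48 ± 0.2.

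**Figure D5:**
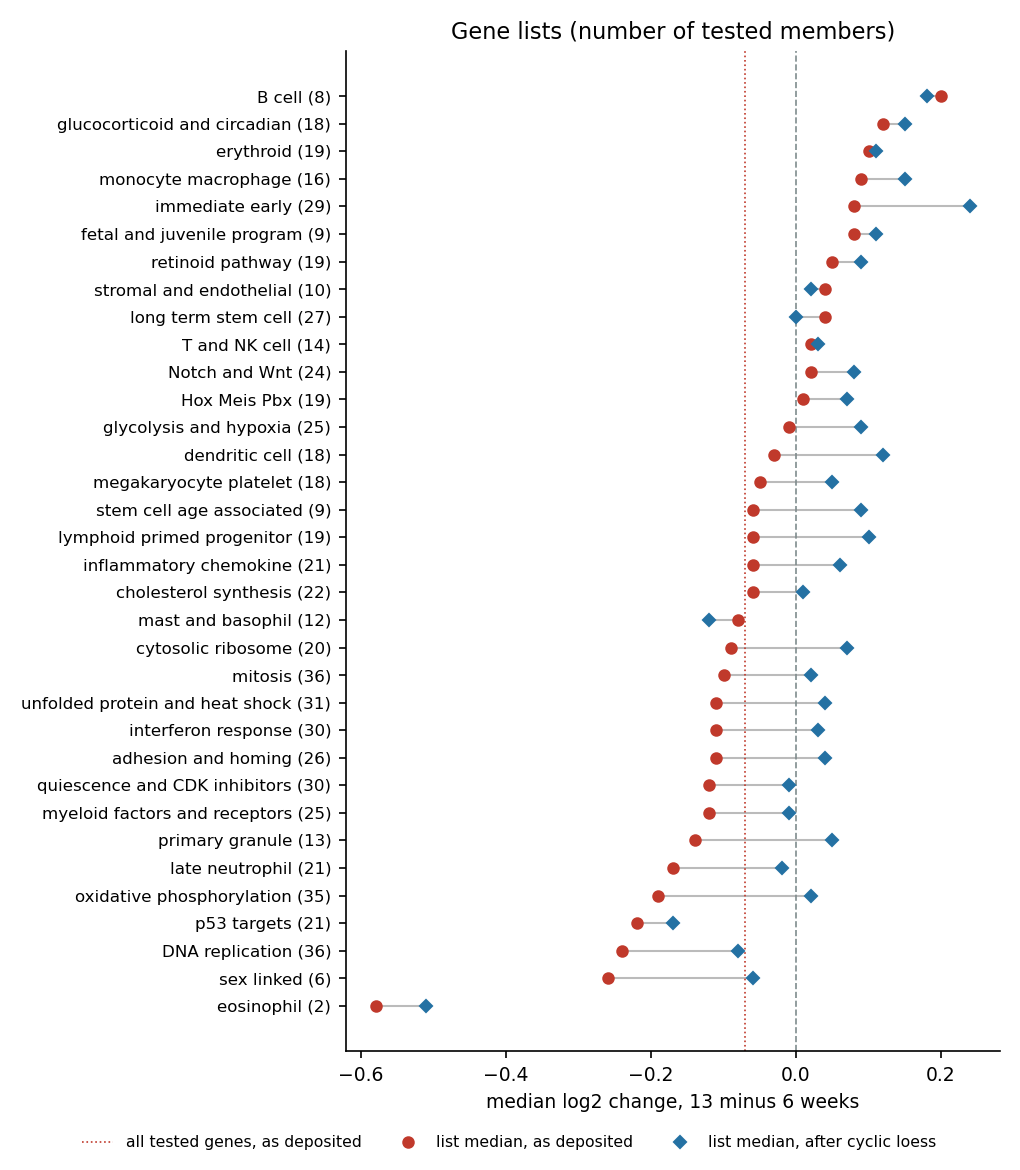
Median log2 difference between 13 and 6 weeks for each of the 34 gene lists, as deposited and after cyclic loess, with the number of tested members beside each name and the median of all genes marked. The DNA replication and p53 target lists lie low at −0.24 and −0.22 as deposited and at −0.08 and −0.17 after cyclic loess, the 2 eosinophil genes at −0.58 as deposited, and the immediate-early list goes from 0.08 to 0.24.

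Lists whose genes lie in the highest quintile of level had deposited medians below 0. Of the genes of oxidative phosphorylation, 27 of 35 were lower, with a median of −0.19 that was 0.02 after cyclic loess, and 30 of the 35 lie in the highest quintile. Uqcrb, a subunit of respiratory complex III, read 9.14 and 9.52 against 9.48, 10.13 and 9.95, with 5 of 5 probe sets lower. The ribosomal protein genes, 20 of 20 in the highest quintile, had 8 higher and 12 lower, with medians of −0.09 and 0.07. Rpl3 read 12.05 and 12.09 at 13 weeks and 11.84, 11.59 and 11.44 at 6 weeks. Rps9 read 12.44 and 12.59 against 12.81, 12.96 and 12.83, but 3 of its 5 probe sets were higher. Ribosomal protein genes have many processed pseudogenes, so their signals are uncertain.

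Chaperones of the endoplasmic reticulum and cytosol had 12 members higher and 19 lower, with medians of −0.11 and 0.04. Pdia3, a disulphide isomerase, read 10.35 and 10.24 against 10.57, 10.81 and 10.82 with 14 of 14 probe sets lower, and Hsp90aa1, the inducible HSP90, differed by −0.4 ± 0.16 with 33 of 34 lower. Hspa5, the main endoplasmic reticulum chaperone, differed by −0.52 ± 0.24, but 5 of its 13 probe sets were higher.

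Genes of glycolysis and hypoxia had 11 higher and 14 lower, with a median of −0.01. After cyclic loess 19 were higher and 6 lower, with a median of 0.09. Ndrg1, a gene induced by hypoxia, read 7.8 and 7.66 at 13 weeks and 6.63, 7.24 and 6.9 at 6 weeks, with WT KLS at 7.67 ± 0.33 (SD, n = 4). The difference was 0.81 ± 0.23 (adjusted p = 0.265). Of its 19 probe sets 17 were higher, 12 of them without overlap, against 12.2% of all probe sets. Pkm, pyruvate kinase, read 9.66 and 9.32 against 8.99, 8.72 and 9.23 with 7 of 7 probe sets higher, while Pdk1, which closes the entry of pyruvate to mitochondria, differed by −0.48 ± 0.19 with 12 of 13 lower. The cholesterol synthesis genes had 9 higher and 13 lower, with medians of −0.06 and 0.01; in Sc5d, a late step of the pathway, 9 of 9 probe sets were lower.

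Immediate-early genes, which respond within minutes to stimulation and to handling of cells, had 19 higher and 10 lower, with a median of 0.08. After cyclic loess 25 of 29 were higher and the median was 0.24. Without replicate 3 of 6 weeks the deposited median was −0.0, and that array had the lowest mean level of the list, 7.5 against 7.81 to 7.9 on the other 4. Jund, an AP-1 subunit, read 7.64 and 7.53 at 13 weeks and 6.56, 7.0 and 6.57 at 6 weeks, a difference of 0.88 ± 0.24 (adjusted p = 0.259). Klf2, a quiescence factor of lymphocytes, read 8.69 and 8.74 against 8.47, 8.53 and 7.87.

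Of the interferon-response genes, 11 were higher and 19 lower, with medians of −0.11 and 0.03. Irgm1, an interferon-induced GTPase of autophagy that has been studied in stem cell maintenance, read 7.19 and 7.13 at 13 weeks and 7.85, 8.05 and 8.11 at 6 weeks. WT KLS read 7.25, 7.33, 7.51 and 7.68, so the 6-week arrays were above the rest. The difference was −0.84 ± 0.18 (unadjusted p = 0.000331, adjusted p = 0.19). Of its 9 probe sets 8 were lower, 6 of them without overlap, against 14.3% of all probe sets. Ifi44 and Rsad2, other interferon-induced genes, differed by −0.37 ± 0.18 and −0.51 ± 0.29, and Gbp2, a guanylate-binding protein, by 0.43 ± 0.21. The inflammatory and chemokine list had 10 higher and 11 lower, with medians of −0.06 and 0.06; Il18, an inflammasome cytokine, read 6.41 and 6.24 against 6.43, 7.01 and 6.86.

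In the retinoid pathway, 12 genes were higher and 7 lower, with a median of 0.05, which was 0.09 after cyclic loess, and 3 were higher at an unadjusted p under 0.05 where 2.62% of all genes were. Besides Aldh1a1 these were the retinoid X receptors. Rxrb read 7.22 and 7.41 at 13 weeks and 6.83, 6.81 and 6.93 at 6 weeks, a difference of 0.46 ± 0.17 (adjusted p = 0.335). Rxra read 6.97 and 6.92 against 6.43, 6.75 and 6.44, a difference of 0.4 ± 0.17 (adjusted p = 0.362). Their probe sets were mixed, with 10 higher and 4 lower for Rxrb and 12 higher and 5 lower for Rxra. With the mean of probe sets the differences were 0.14 (unadjusted p = 0.336) and 0.21 (unadjusted p = 0.136), so neither kept an unadjusted p under 0.05. The list also holds corepressors and DNA methyltransferases that PML-RARA is known to recruit. Dnmt1 differed by −0.43 ± 0.19, Dnmt3b by −0.38 ± 0.2 and Ncor1 by −0.33 ± 0.17, none past the threshold. Each was lower without overlap, as were 20.2% of all genes. Of their probe sets, 12 of 47, 8 of 26 and 9 of 61 were higher. The mean of probe sets gave −0.19 (unadjusted p = 0.204), −0.18 (unadjusted p = 0.244) and −0.38 (unadjusted p = 0.0101). After cyclic loess the differences were −0.21, −0.22 and −0.11.

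Lists that bear on age had medians between −0.06 and 0.12. Genes of the fetal and juvenile programme had 5 higher and 4 lower, with a median of 0.08, and 0.11 after cyclic loess. Lin28a, the fetal RNA-binding protein, read 6.72 and 6.57 against 6.21, 6.44 and 6.37. Ezh2, a Polycomb methyltransferase high in fetal and dividing cells, read 9.63 and 9.86 against 9.94, 10.03 and 10.15. Genes tied to stem cell age had 4 higher and 5 lower, with a median of −0.06. After cyclic loess 7 were higher and 2 lower, with a median of 0.09. The mean level of the list was 7.45 and 7.39 at 13 weeks and 7.2, 7.35 and 7.18 at 6 weeks, without overlap. Means of several other lists were also without overlap, as given above with the DNA replication list. Aldh1a1, described above, is a member of the stem cell age list too, at 1.09. Mt2 was at 0.64 ± 0.46, with overlap. Both had the largest differences of the named members, so the mean level of the list rests largely on them. Nupr1, a stress-response gene, differed by 0.3 ± 0.17, and Vwf, von Willebrand factor, by 0.08 ± 0.16. Glucocorticoid and circadian genes had 12 higher and 6 lower, with a median of 0.12 that was 0.15 after cyclic loess and 0.01 to 0.16 when 1 array was left out. Tsc22d3, the glucocorticoid-induced leucine zipper, read 8.11 and 7.42 against 7.25, 7.24 and 6.75, and differed by 0.68 ± 0.26 (adjusted p = 0.347).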

How the data were processed

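RNA of sorted bone marrow cells was hybridised to Affymetrix Mouse Exon 1.0 ST arrays from 20 ng of total RNA, per the labels. The authors deposited linear intensity values for 229581 probe sets. The submitters' processing notes name RMA and mm9. The RMA settings and the gate of the sort were not given in the sources used here.

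Log2 was taken without further scaling. A gene's value was the median of its probe sets listed with 1 gene, at least 3 of them (15123 genes). Genes above the 30th percentile of mean level over the 9 KLS arrays entered limma 3.58.1 (R 4.3.3; 3 KLS groups in 1 fit, two-sided, Benjamini-Hochberg over 10586 genes), tested on simulated data. The number of arrays limits precision.

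Named were genes passing the threshold or, as fewer than 10 passed, the 12 of smallest p in each direction, Ctsg, Pml, Rara, sorting markers and up to 6 members per list. Members, lists and fit were chosen with earlier results of these data known. The other arrays of the series, titled SLAM, were left out of the fit because those results showed a larger spread within their groups. Alternatives changed the arrays in the fit, filter, probe-set summary and scaling. Replicate numbers did not pair arrays (correlations of deviations −0.023 to 0.023). Promoters are from RefSeq, matched by symbol for 8593 tested genes.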

Additional observations from a re-analysis of the deposited data

Results flagged for a closer look

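In 61 groups of 4 WT KLS values (27 genes and 34 list means) 1 array lay far from the others: for the glucocorticoid and circadian list, WT replicate 2 had a mean level of 7.56, against 7.7 to 7.71 on the other 3. Chance alone flags about 1 in 20 groups. The groups of 2 and 3 transgenic arrays are too small for this check.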

How the results depend on the processing

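Over 19 alternatives, the 24 genes of smallest p with Ctsg, Pml and Rara kept direction and side of the threshold in 485 of 505 comparisons. The 12 losses of a call were all of Tefm. Fits without a WT array, with all 13 arrays or with the 5 transgenic KLS arrays alone cannot change a difference. Direction was therefore fixed in advance in those fits, and only the side of the threshold could change. The count of lower genes was 0 with all 13 arrays, with the 5 transgenic KLS arrays alone, without the filter and with the mean of probe sets. It ranged from 0 to 16 when 1 array was left out, and that of higher genes from 0 to 1. Both extremes came without replicate 1 of 6 weeks, where H2-T3 was higher (1.02) and Tefm, Gatc, Mtap and Rps27l were among the 16 lower. The difference of Ctsg ranged from −0.23 to 0.43 when 1 array was left out: it turned to −0.17 without replicate 2 of 13 weeks, and to −0.23 and −0.04 without replicates 1 and 3 of 6 weeks. Over all 219 named genes tested, list members and markers included, 21 changed sign when 1 array was left out, such as Prg2 (−1.53 to 0.11) and Cpa3 (−1.06 to 0.25). Cyclic loess and quantile normalization each called 1 lower gene; loess moved the share of lower genes from 60.4% to 49.7% and quantile normalization to 48.2%.

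With the replicate number as a block, which the labels do not tie to a shared source, 0 genes were higher and 1 lower; it was Zfp759 (−2.06, adjusted p = 0.0216), and Tefm had adjusted p = 0.114. Of 646 list medians, 24 moved by more than the spread of arrays. The small number of arrays leaves wide intervals, such as −0.74 to 0.85 for Ctsg.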

Other observations

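A pair of gene series were counted after their values were seen. Of 191 tested genes with Zfp symbols, which encode zinc finger proteins, 132 (69.1%) were lower at 13 weeks against 60.4% of all genes, with a median of −0.18. After cyclic loess 124 were lower and the median was −0.11. Without overlap 60 were lower (31.4%), against 20.2% of all genes, and 14 were higher. Members of the series resemble each other in sequence, so they are not independent.

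Of 34 tested olfactory receptor genes of the Olfr series, 23 were higher at 13 weeks, with a median of 0.12 and 0.1 after cyclic loess. Their median level was 6.38, near the filter threshold of 5.96, where genes of any kind had a median of 0.08 as deposited.

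Without replicate 1 of 6 weeks, 1 gene passed higher and 16 lower. Gatc, a subunit of the mitochondrial glutamyl-tRNA amidotransferase, was at −1.29 and Mtap, the methylthioadenosine phosphorylase of purine salvage, at −1.21. Rps27l, a ribosomal protein homologue induced by p53, was at −1.7. The rest of the 16 were Cmpk1, Commd3, Fam133b, Pnpt1, Polr2m, Rsrp1, Tefm, Ubxn2a, Vdac2, Wdr61, Zfp160, Zfp654 and a predicted gene. Gatc, Pnpt1, Vdac2 and Tefm act in mitochondria. The share of such genes over all tested genes was not counted, so no result about mitochondrial genes follows. Every other fit called 0 or 1 lower gene.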
